A study of Mus musculus with 4 samples.

Results

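Ctsk_Macro was a small macrophage cluster of mouse melanomas whose leading genes were those of osteoclasts, the bone-resorbing cells. Its members were the cells that carried this name in the deposited cell type annotation, 923 of 33368 CD45+ cells. The annotation was made by the submitters from clusters of the cells' expression profiles. The clusters rest on the most variable genes, so genes that set these cells apart helped to define the group. The sample labelled NTT held 5 of the 923 cells, RTT 329, RTT_ROSA26 401 and RTT_PTGS12KO 188.

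The study compared the immune cells of tumours that respond to T cell therapy with those of tumours that escape it. All tumours were grown in Rag2-/- mice, which make no T or B cells of their own, from YUMM1.7 mouse melanoma cells (Braf mutant and lacking Cdkn2a) in which ovalbumin (OVA) served as model antigen. NTT cells were naive to targeted therapy, and RTT cells had been made resistant to it and were kept in the BRAF inhibitor dabrafenib. RTT_ROSA26 and RTT_PTGS12KO were resistant cells carrying a guide RNA against the neutral ROSA26 locus or a knockout of Ptgs1 and Ptgs2, which encode the cyclooxygenases COX1 and COX2 that start prostaglandin synthesis. The labels name the injected lines Y1.7_NTT_3A6, Y1.7_RTT_2B12, Y1.7_RTT_ROSA26 and Y1.7_RTT_PTGS12KO. Knockouts were made in clones with doxycycline-inducible Cas9, so a line may differ from its parent in more than the targeted genes. Only the injected cancer cells were edited, so the macrophages themselves keep both genes. All mice received activated OT-1 T cells, which recognise an OVA peptide, on day 7, and tumours were taken on day 10, 72 h later. Each group was 1 sample. The labels give 1 tumour per condition, whereas the study's legends describe tumours pooled per group, and the sources used here do not settle which holds. With n = 1 per group, differences between groups are given without a test, and no replicate shows their biological spread. The 4 samples were tagged with oligonucleotides, pooled and loaded on the instrument 3 times. Each load thus holds cells and free RNA of all samples, and a cell's load was read from the number in its barcode ending. Intervals are at the 95% level and reflect counting error alone.

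Osteoclasts arise from the monocyte and macrophage lineage when macrophage colony-stimulating factor and RANKL act on their receptors, Csf1r and RANK (Tnfrsf11a). Adaptors with immunoreceptor motifs, such as Tyrobp and Fcer1g, relay a calcium signal that activates the transcription factor NFATc1, which switches on the genes for cell fusion, attachment, acid secretion and matrix breakdown. A proton pump, the vacuolar ATPase (V-ATPase), acidifies the space under the cell, where cathepsin K cuts collagen. In tissues other than bone, giant cells and some tumour macrophages are known to express parts of the same programme.

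The 6 genes that mark the cluster were Ctsk (cathepsin K), Mmp9 (a gelatinase), Acp5 (tartrate-resistant acid phosphatase), Slc9b2 (a sodium-proton exchanger), Atp6v0d2 (a V-ATPase subunit linked to cell fusion) and Oscar (an osteoclast receptor for collagen). All are annotated as protein coding in GENCODE on GRCm38. Ctsk lies on chromosome 3 from 95499256 to 95509362 and Slc9b2 on the same chromosome from 135307700 to 135345387, both on the plus strand. Mmp9 lies on chromosome 2 from 164940780 to 164955850 on the plus strand. On the minus strand, Acp5 lies on chromosome 9 from 22126727 to 22135711, Atp6v0d2 on chromosome 4 from 19876841 to 19922605, and Oscar on chromosome 7 from 3609813 to 3616157.

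Promoters of 4 of the 6 markers were in the RefSeq table used here, and they are shown because these genes were expressed together in the same cells. Each is a window of 300 bases on GRCm38.p6, from 250 bases before to 50 bases after an annotated start, written 5′ to 3′ on the strand of the gene. Capitals mark exact matches, on either strand, to GGAAA (the core recognised by NFAT factors), CATGTG (an M-box, recognised by MITF-type factors) or GAGGAA (a core recognised by PU.1), and matches may overlap. For Acp5, the most downstream of its 3 annotated starts is shown.
Ctsk chr3:95498960-95499259, plus strand: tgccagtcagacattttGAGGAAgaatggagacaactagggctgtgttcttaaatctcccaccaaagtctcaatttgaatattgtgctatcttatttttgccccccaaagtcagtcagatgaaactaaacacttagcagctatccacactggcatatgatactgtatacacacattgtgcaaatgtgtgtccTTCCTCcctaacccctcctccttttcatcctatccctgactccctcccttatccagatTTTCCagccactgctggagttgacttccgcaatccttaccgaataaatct
Slc9b2 chr3:135307450-135307749, plus strand: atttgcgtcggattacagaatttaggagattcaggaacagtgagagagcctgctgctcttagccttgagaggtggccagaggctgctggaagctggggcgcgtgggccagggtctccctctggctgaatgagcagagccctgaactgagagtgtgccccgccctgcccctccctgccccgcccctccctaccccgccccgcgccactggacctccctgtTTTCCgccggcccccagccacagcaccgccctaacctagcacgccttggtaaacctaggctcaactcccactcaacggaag
Acp5 chr9:22130549-22130848, minus strand: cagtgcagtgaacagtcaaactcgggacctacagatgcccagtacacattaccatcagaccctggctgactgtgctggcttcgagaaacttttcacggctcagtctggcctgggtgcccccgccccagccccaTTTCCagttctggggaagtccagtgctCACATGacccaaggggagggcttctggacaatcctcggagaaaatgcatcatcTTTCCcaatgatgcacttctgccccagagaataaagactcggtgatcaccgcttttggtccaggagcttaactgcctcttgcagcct
Oscar chr7:3616108-3616407, minus strand: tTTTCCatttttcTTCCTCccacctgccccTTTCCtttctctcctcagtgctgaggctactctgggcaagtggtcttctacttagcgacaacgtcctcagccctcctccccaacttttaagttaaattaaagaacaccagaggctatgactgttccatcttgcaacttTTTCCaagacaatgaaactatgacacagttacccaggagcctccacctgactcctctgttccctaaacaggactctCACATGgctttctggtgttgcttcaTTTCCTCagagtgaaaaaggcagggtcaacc
Oscar held 4 matches to GGAAA, Acp5 2, and Ctsk and Slc9b2 1 each, while CATGTG was matched 1 time in Oscar and 1 time in this Acp5 window. Each of the other 2 Acp5 windows held 1 match to GGAAA and 0 to CATGTG. Ctsk and Oscar each held 2 matches to GAGGAA. Of all 32851 promoter windows of this length in the table, 61.3% held GGAAA, 14.2% CATGTG and 28.3% GAGGAA, so the first of these is a common string. The matches describe the letters of these windows and say nothing of binding.

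The label was checked against the 6 markers first. Levels are given as CPM, the number of unique transcript tags (UMIs) of a gene per 1000000 UMIs summed over the cells of a class in a sample. Where 3 values follow each other, they are those of RTT, RTT_ROSA26 and RTT_PTGS12KO in this order. In Ctsk_Macro cells, Ctsk was at 14593 CPM in RTT, 13932 in RTT_ROSA26, 14769.5 in RTT_PTGS12KO and 8167 in NTT, against 42.98, 39.6 and 26.2 CPM in the other macrophages of the 3 resistant samples. Other macrophages were the classes TAM_C1q, TAM_Spp1, TAM_cycling and TAM_H2Ab1 (TAM, tumour-associated macrophage). Mmp9 was at 6578 CPM in RTT, 6134 in RTT_ROSA26, 7127 in RTT_PTGS12KO and 6251 in NTT, against 24.6, 19.4 and 10.7 CPM in other macrophages. Every resistant sample thus had both genes at 6134 CPM or more in the cluster and below 50 CPM in its other macrophages.

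Acp5 stood at 9596 CPM in RTT, 8699.6 in RTT_ROSA26, 7629 in RTT_PTGS12KO and 5897 in NTT, against 246, 160.4 and 61.9 CPM in other macrophages. Slc9b2 reached 459 CPM in RTT, 473 in RTT_ROSA26, 437 in RTT_PTGS12KO and 173 in NTT, against 1.42, 1.85 and 1.27 CPM. Atp6v0d2 reached 518 CPM in RTT, 553 in RTT_ROSA26, 442 in RTT_PTGS12KO and 457 in NTT, against 11.6, 5.45 and 4.69 CPM. Oscar was at 86.9 CPM in RTT, 79.3 in RTT_ROSA26, 129 in RTT_PTGS12KO and 166 in NTT, against 0.131, 0.0769 and 0.139 CPM. In the resistant samples the clusters differed by log2 ratios of 9.38, 10.01 and 9.85 for Oscar, the largest of the 6 genes, and of 5.29, 5.76 and 6.94 for Acp5 and 5.48, 6.66 and 6.56 for Atp6v0d2, the pair with the smallest. These ratios describe the clusters and are not a test, because the same genes formed them.

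**Figure D1:**
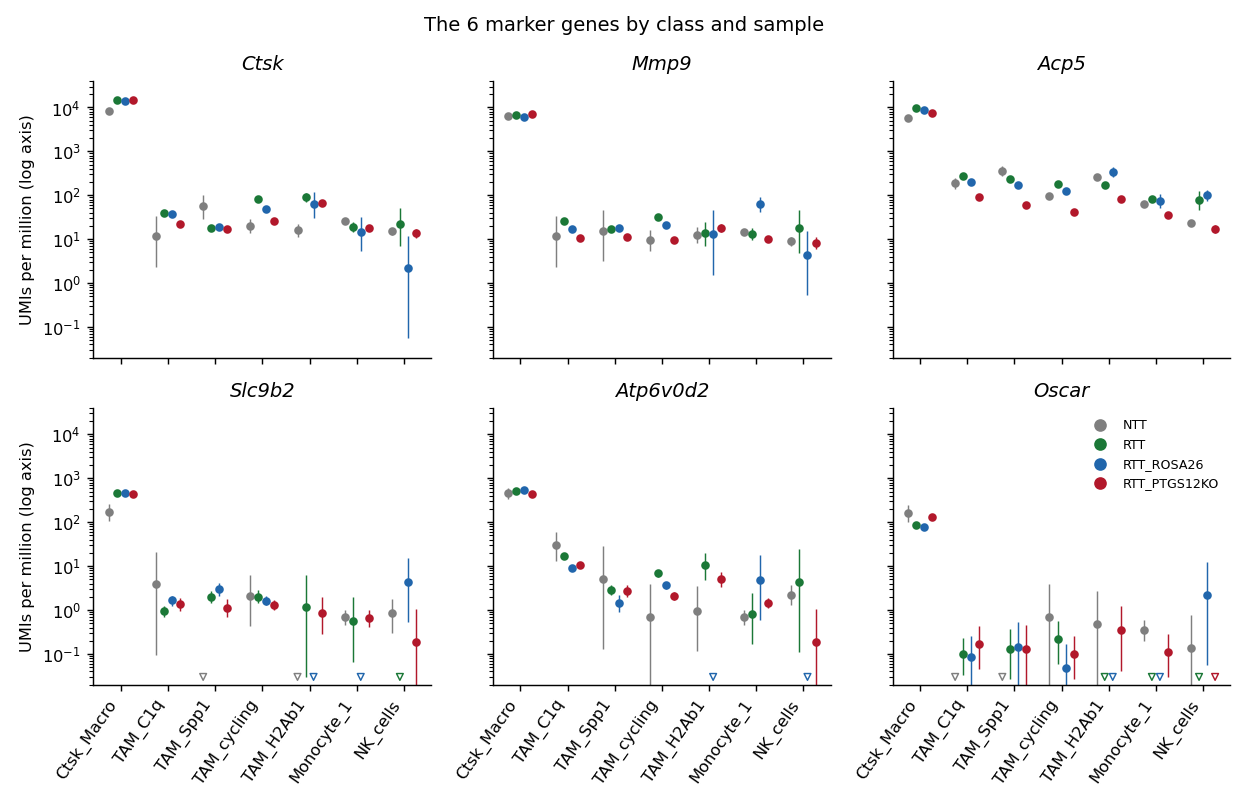
Level of the 6 marker genes in UMIs per 1000000 (log axis) by cell class (x axis) and sample (colour); bars are 95% Poisson intervals, and open triangles at the bottom stand for classes with 0 UMIs. In every panel the Ctsk_Macro points lie above those of every other class shown, for Ctsk at 8167 to 14770 against at most 89.1.

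Although the cells made up under 6% of each resistant sample, they held 94.4%, 96.7% and 94.6% of all Ctsk UMIs. For Mmp9 the shares were 93.2%, 95.9% and 94.1%, and for Oscar 96.7%, 98.6% and 96.5%. Acp5 was less restricted, with 70.7%, 82.9% and 80.6% of its UMIs in the cluster, and so was Atp6v0d2, with 70.9%, 89.4% and 77.9%. In NTT the 5 cells held 34.6% of the Ctsk UMIs.

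Most single cells carried several of the markers. A UMI of at least 4 of the 6 genes was found in 312 of 329 cells in RTT (94.8%), 367 of 401 in RTT_ROSA26 (91.5%), 182 of 188 in RTT_PTGS12KO (96.8%) and 4 of 5 in NTT. Outside the cluster the same held for 136 of 32445 cells (0.419%), where the median share of a cell's UMIs from the 6 genes was 0.0749%. The median within Ctsk_Macro was 2.97% of a cell's UMIs in RTT, 2.93% in RTT_ROSA26 and 2.85% in RTT_PTGS12KO, and the highest cell reached 10.8%. The cluster therefore had a wide range and a weak tail. Cells under 0.25% of UMIs numbered 17 in RTT, 39 in RTT_ROSA26 and 9 in RTT_PTGS12KO.

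Detection depends on depth, so each cell was also thinned to 3000 UMIs, which left out 1 shallower cell in each resistant sample. Ctsk was then detected in 96.3% of Ctsk_Macro cells in RTT, 92.3% in RTT_ROSA26 and 97.9% in RTT_PTGS12KO, against 5.80%, 5.15% and 6.38% in TAM_C1q. NK cells, which should lack the gene, showed it in 4.88% (NTT) and 4.32% (RTT_PTGS12KO) of thinned cells, at median depths of 7669 and 15524 UMIs before thinning. In RTT_PTGS12KO the share in TAM_C1q thus lay within the interval of NK cells of the same sample, 2.32% to 7.27%. The other 2 resistant samples held few NK cells, so the background there is less well known. A Ctsk UMI was found in 2 of 12 in RTT (2.09% to 48.4%) and in 0 of 23 in RTT_ROSA26 (0% to 14.8%). Before thinning, the shares in Ctsk_Macro were 98.5%, 94.5% and 97.9%, at median depths of 16793, 19418 and 19401.5 UMIs. Oscar, at a lower level, was detected in 17.4%, 18.0% and 21.4% of thinned Ctsk_Macro cells, and in at most 0.0644% of thinned TAM_C1q cells in these samples.

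The whole samples held 69332486 to 146829369 UMIs, of which the cluster comprised 126851 in the 5 cells of NTT, and 5998623, 8586349 and 3869471 in the resistant samples. Its cells were deeper than the other macrophages of the same samples, whose medians were 12771, 13641 and 15499 UMIs, and had more mitochondrial UMIs, with medians of 4.53%, 3.65% and 4.48% against 2.81%, 2.55% and 2.43%. With 5 cells, NTT gave levels but no ratios. There, 1 UMI amounts to 7.88 CPM, and NTT levels below 23.6 CPM rest on 0 to 2 UMIs and are not compared with those of other samples. There were 98 cell barcodes that occurred in more than 1 of the 3 loads of pooled cells, and 5 Ctsk_Macro cells carried such a barcode.

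The first comparison was of abundance. Ctsk_Macro cells made up 0.0605% of CD45+ cells in NTT (5 of 8266; 0.0196% to 0.141%) and 4.13% in RTT (329 of 7970; 3.70% to 4.59%). The share was 5.87% in RTT_ROSA26 (401 of 6836; 5.32% to 6.45%) and 1.83% in RTT_PTGS12KO (188 of 10296; 1.58% to 2.10%). The 3 loads of the same cells, a technical spread, ranged from 3.64% to 4.64% for RTT, from 5.21% to 6.80% for RTT_ROSA26 and from 1.38% to 2.15% for RTT_PTGS12KO. The knockout sample was lower than either other resistant sample in every load. Its share was 3.21-fold below that of RTT_ROSA26 (log2 ratio -1.68, interval -1.94 to -1.43) and 2.26-fold below that of RTT (-1.18, -1.44 to -0.91). The 2 resistant samples that keep both genes also differed, by a log2 ratio of 0.51 (0.29 to 0.72) for RTT_ROSA26 over RTT. Without the cells that carried 2 or more UMIs of NK, T, dendritic, neutrophil, mast or fibroblast markers, the share was 2.71% in RTT and 2.21% in RTT_PTGS12KO and this ratio 0.98, while RTT_PTGS12KO over RTT_ROSA26 was at -1.27.

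The samples also differed in macrophages as a whole, at 6734 of 7970 cells in RTT and 5993 of 6836 in RTT_ROSA26 but 5207 of 10296 in RTT_PTGS12KO. As a share of macrophages, Ctsk_Macro was at 1.62% in NTT (5 of 308; 0.529% to 3.75%) and 4.89% in RTT (4.38% to 5.43%). It was at 6.69% in RTT_ROSA26 (6.07% to 7.35%) and 3.61% in RTT_PTGS12KO (3.12% to 4.15%). The log2 ratio of RTT_PTGS12KO over RTT_ROSA26 was then -0.89 (-1.15 to -0.64), that over RTT -0.44 (-0.70 to -0.17), and that of RTT_ROSA26 over RTT 0.45 (0.24 to 0.67). On this scale the distance of the knockout from RTT was no larger than the distance between the 2 samples that keep Ptgs1 and Ptgs2. In the 3 loads RTT_PTGS12KO was at 2.66%, 4.28% and 3.89% against 4.84%, 5.56% and 4.27% in RTT, lower in each. The order of these samples depended on which cells were counted. With TAM_cycling left out of the macrophages, RTT was at 5.61% and RTT_PTGS12KO at 5.57%. Without the cells with 2 or more UMIs of other cell types the order turned, with 3.02% in RTT and 3.91% in RTT_PTGS12KO, while RTT_ROSA26 stayed above both at 5.71%.

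**Figure D2:**
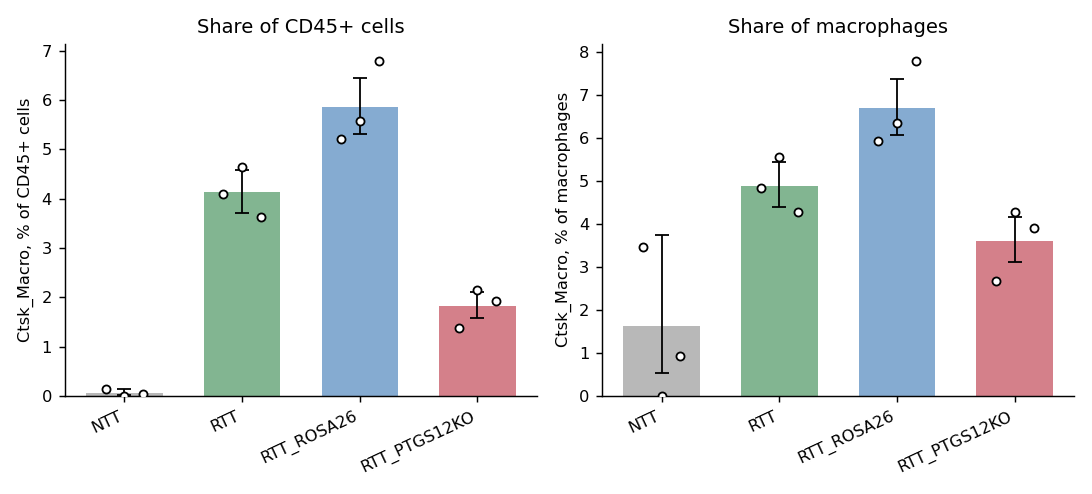
Share of Ctsk_Macro among CD45+ cells (left) and among macrophages (right), in percent, by sample; bars start at 0, error bars are 95% Clopper-Pearson intervals and circles are the 3 loads of the pooled cells. On the left RTT_PTGS12KO (1.83%) lies below RTT (4.13%) and RTT_ROSA26 (5.87%), and on the right the order is the same with closer values (3.61%, 4.89% and 6.69%).

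The next question was how far the osteoclast programme went in these cells, compared with other macrophages of the same sample. A gene was called when it differed at least 2-fold, in the same direction, in all 3 resistant samples and reached 50 CPM in the higher class. Of 7569 genes with at least 10 CPM, 177 (2.34%) were called higher and 215 (2.84%) lower in Ctsk_Macro. The median log2 ratio over all these genes was 0.00 in RTT, -0.08 in RTT_ROSA26 and -0.08 in RTT_PTGS12KO. Being formed from the expression profiles of the same cells, the cluster was described and not tested.

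Among the receptors and adaptors, 12 of 14 listed genes passed the level filter, 2 were called higher and their medians were 0.22, 0.19 and 0.18. The 2 were Oscar and Tnfrsf11a, the gene of the RANKL receptor. Tnfrsf11a was at 100.2 CPM in RTT, 109 in RTT_ROSA26, 86.6 in RTT_PTGS12KO and 78.8 in NTT, against 36.4, 47.5 and 33.3 CPM in other macrophages. Csf1r, the receptor for macrophage colony-stimulating factor, was at 603 CPM in RTT, 563 in RTT_ROSA26, 559 in RTT_PTGS12KO and 426 in NTT against 460.4, 462 and 387 CPM, so this receptor of all macrophages differed by under 2-fold. Tyrobp, the adaptor that pairs with Trem2, was at 3936, 3393 and 3878 CPM in the resistant samples against 3214, 2712 and 2071 CPM. Fcer1g, the other adaptor, lay on the other side, at 2374, 1742 and 2319 CPM against 3943, 3976 and 3414 CPM, and so did Plcg2, a phospholipase of the same path, at 17.2, 21.4 and 24.8 CPM against 33.4, 38.04 and 42.3 CPM, both short of a call. Siglec15, a sialic-acid receptor of osteoclasts, was at 3.83, 5.01 and 5.43 CPM, below the filter, and other macrophages held 0 UMIs in RTT and at most 0.0232 CPM in the other two samples. Calcr, the calcitonin receptor of mature osteoclasts, was at 1.83, 0.815 and 1.29 CPM with 0 UMIs in other macrophages.

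Of 19 osteoclast transcription factors, 17 passed the filter and 3 were called higher, with list medians of -0.20, 0.23 and 0.45. Nfatc1, the master regulator, was at 348 CPM in RTT, 438 in RTT_ROSA26, 374 in RTT_PTGS12KO and 559.7 in NTT, against 39.4, 40.3 and 29.2 CPM in other macrophages. Its log2 ratios were 3.14, 3.44 and 3.68, and all 3 clusters lay at least 8-fold above their own macrophages. Prdm1, which encodes the repressor Blimp1 that silences inhibitors of NFATc1, was at 113 CPM in RTT, 153 in RTT_ROSA26, 151 in RTT_PTGS12KO and 118 in NTT against 49.9, 36.9 and 39.9 CPM. Ppargc1b, a coactivator that drives mitochondrial biogenesis in osteoclasts, was at 50.01 CPM in RTT, 56.6 in RTT_ROSA26, 60.2 in RTT_PTGS12KO and 63.1 in NTT against 2.31, 3.098 and 5.11 CPM. Mitf showed log2 ratios of 1.45, 1.61 and 1.02, at 39.2, 51.6 and 36.7 CPM, and was called in neither direction because only RTT_ROSA26 passed 50 CPM. Fos and Spi1 (PU.1), which act early in the lineage, showed log2 ratios of -0.94, -0.46 and -0.15 and of 0.31, 0.45 and 0.45.

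The inhibitors of osteoclast formation went the other way. Of 8 listed, 7 passed the filter of this comparison, 3 were called lower and 0 higher, and the medians were -1.63, -1.84 and -1.53. Irf8, a repressor of NFATc1 activity, was at 45.8 CPM in RTT, 28.4 in RTT_ROSA26, 97.4 in RTT_PTGS12KO and 94.6 in NTT against 142, 134 and 284 CPM. Id2, an inhibitor of helix-loop-helix factors, was at 151, 165 and 116 CPM against 387, 391 and 335 CPM, and Lilrb4a, an inhibitory receptor, at 73.02, 52.99 and 85.02 CPM against 364, 398 and 371 CPM.

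Genes of cell fusion divided. Dcstamp and Ocstamp, which encode membrane proteins needed for osteoclasts to fuse, were both called higher with Atp6v0d2, while Cd81 and the protease gene Adam8 were called lower, 3 against 2 of 10 genes. Dcstamp was at 122 CPM in RTT, 182 in RTT_ROSA26, 180.1 in RTT_PTGS12KO and 213 in NTT against 4.84, 4.86 and 6.101 CPM. Ocstamp was at 131 CPM in RTT, 201 in RTT_ROSA26, 217 in RTT_PTGS12KO and 213 in NTT against 9.69, 4.58 and 7.55 CPM. In RTT both were lower than in RTT_ROSA26 and RTT_PTGS12KO. Cd81, a tetraspanin, was at 57.01, 37.6 and 70.04 CPM against 434, 540.1 and 516 CPM, and Adam8 at 55.5, 39.02 and 39.5 CPM against 275, 206 and 177 CPM. The list medians were 0.29, 0.33 and 0.52.

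For attachment and the sealing zone, 9 of 9 genes passed the filter, the medians were 1.52, 1.36 and 1.67, and 1 was called, Itgav. Osteoclasts hold on to bone by the integrin formed from Itgav and Itgb3. Itgav was at 253 CPM in RTT, 257 in RTT_ROSA26, 222 in RTT_PTGS12KO and 149.8 in NTT against 88.5, 101 and 69.5 CPM, and Itgb3 at 86.2 CPM in RTT, 72.8 in RTT_ROSA26, 37.2 in RTT_PTGS12KO and 205 in NTT against 1.24, 1.81 and 0.813 CPM. Itgb3 had log2 ratios of 6.12, 5.33 and 5.52 but was at 37.2 CPM in RTT_PTGS12KO, under the 50 CPM needed for a call. Src, the kinase that osteoclasts need for their ruffled border, was at 44.7, 50.4 and 59.2 CPM against 5.64, 5.03 and 4.299 CPM, and Cttn (cortactin, an actin regulator of the podosome belt) at 39.2, 56.8 and 37.7 CPM against 1.29, 2.22 and 2.44 CPM. Tln1 (talin) was almost level, with log2 ratios of 0.17, 0.05 and 0.04.

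Most genes of the proton pump that passed the level filter were called higher. Of 24 V-ATPase genes listed, 18 passed the filter, 11 were called higher and 0 lower, and the medians were 1.18, 1.24 and 1.22. The 24 genes together made up 12404, 12859.9 and 11364 CPM of Ctsk_Macro, against 5439.9, 5192 and 4543 CPM of other macrophages. Tcirg1, the a3 subunit that places the pump at the ruffled border, was at 217 CPM in RTT, 258 in RTT_ROSA26, 261 in RTT_PTGS12KO and 276 in NTT against 105, 98.9 and 85.2 CPM, whereas Atp6v0a1, of the a1 subunit, was at 13.003, 7.92 and 10.3 CPM against 33.2, 38.8 and 30.03 CPM. Atp6v1b2 was at 597, 654 and 709 CPM against 121, 118 and 108 CPM. The d subunits differed in the same manner, Atp6v0d2 being called higher while Atp6v0d1 had log2 ratios of -0.24, -0.40 and -0.23. Ratios were thus above 0 for the osteoclast-type a and d subunits and below 0 for their widespread partners.

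Of 9 genes of ion transport and vesicle traffic, 4 were called higher (Slc4a2, Slc9b2, Slc37a2 and Snx10) and 0 lower, with medians of 2.503, 2.44 and 2.18. Slc4a2, the anion exchanger that balances acid secretion, was at 67.8, 88.4 and 75.5 CPM against 11.2, 15.7 and 14.4 CPM. Snx10, a sorting nexin whose loss causes osteopetrosis, was at 574, 444 and 456 CPM against 98.3, 81.5 and 102 CPM. Clcn7, the chloride-proton exchanger of the ruffled border, was at 62.8 CPM in RTT, 43.1 in RTT_ROSA26, 114 in RTT_PTGS12KO and 55.2 in NTT against 18.8, 17.96 and 25.1 CPM, and Car2 (carbonic anhydrase 2, the source of protons) at 40.01 CPM in RTT, 32.8 in RTT_ROSA26, 52.2 in RTT_PTGS12KO and 55.2 in NTT against 0.414, 0.593 and 0.581 CPM. Car2 had log2 ratios of 6.59, 5.79 and 6.49, although RTT and RTT_ROSA26 stayed under 50 CPM.

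Matrix-degrading enzymes were mixed. Of 17 listed genes, 14 passed the filter, 3 (Ctsk, Acp5 and Mmp9) were called higher and 2 (Mmp12 and Ctss) lower, and the medians were -0.18, -0.72 and -0.08. The sum of the list ran the other way, at 38610.5, 33589.6 and 34629 CPM against 10534, 9821 and 7469 CPM, and includes the marker genes Ctsk, Acp5 and Mmp9. Mmp14, a membrane-bound collagenase of osteoclasts, was at 245 CPM in RTT, 221 in RTT_ROSA26, 194 in RTT_PTGS12KO and 284 in NTT against 126, 120.2 and 87.99 CPM. Mmp12, the macrophage elastase, was at 25.3, 13.98 and 5.69 CPM against 58.97, 51.6 and 89.6 CPM. Ctsb and Ctss, cathepsins of many macrophages, were at 1330.1, 853 and 914 and at 749.8, 402 and 1142 CPM against 2369, 2489 and 1668 and 2517, 2035 and 2372 CPM. Of the factors that osteoclasts secrete, 6 of 10 passed the filter, 0 were called higher and 2 lower, the latter being Spp1 (osteopontin), at 1193, 858 and 1191 CPM against 5081, 5214 and 5704 CPM, and Vegfa, at 79.4, 56.4 and 54.8 CPM against 232, 167 and 138 CPM.

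**Figure D3:**
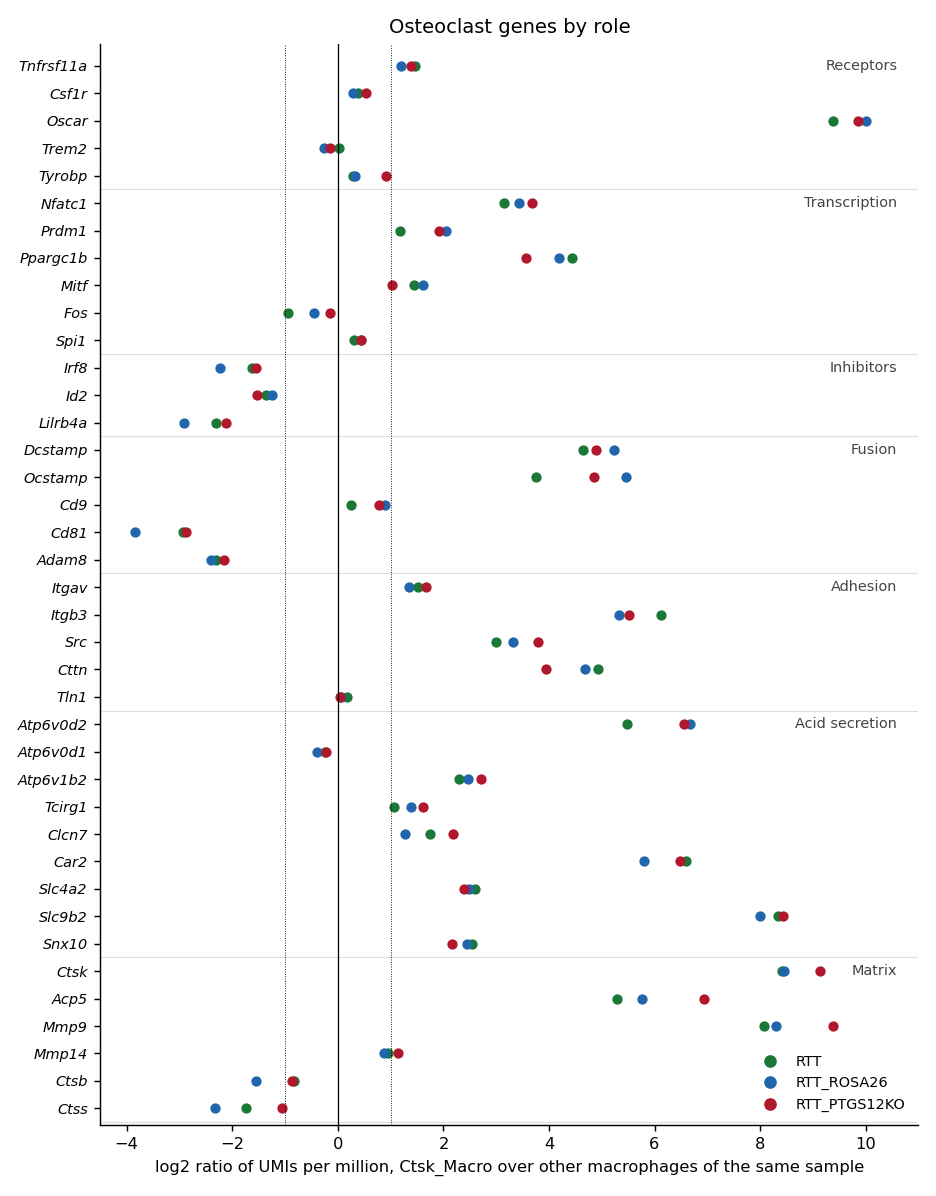
Log2 ratio of UMIs per 1000000 in Ctsk_Macro over other macrophages of the same sample (x axis) for osteoclast genes grouped by role (y axis); each point is 1 resistant sample, and dotted lines mark a 2-fold difference. Oscar, Mmp9, Ctsk and Slc9b2 lie furthest to the right, the inhibitors Irf8, Id2 and Lilrb4a and the genes Cd81, Adam8 and Ctss lie to the left, and the 3 samples lie close together for most genes.

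Genes of mitochondrial respiration had medians above those of all genes in each resistant sample. Of 85 nuclear genes of oxidative phosphorylation, 79 passed the filter, 17 were called higher and 0 lower, with medians of 0.88, 0.93 and 0.84. Ndufa4, a subunit of the respiratory chain, was at 1228, 1462 and 1179 CPM against 325, 399 and 235 CPM, and Cyc1 (cytochrome c1) at 327, 420.1 and 365 CPM against 98.7, 127 and 118 CPM. Glycolysis genes had medians of -0.66, -0.40 and -0.87, with 0 of 15 called higher and 1 lower, the glucose transporter gene Slc2a1, at 20.005, 20.8 and 24.3 CPM against 62.001, 52.4 and 87.1 CPM. Tfrc, the transferrin receptor that supplies iron, was at 197 CPM in RTT, 172 in RTT_ROSA26, 201 in RTT_PTGS12KO and 181 in NTT against 11.4, 11.998 and 12.4 CPM. Steap4, a metalloreductase, was at 78.4 CPM in RTT, 23.3 in RTT_ROSA26, 77.01 in RTT_PTGS12KO and 7.88 in NTT against 0.698, 0.407 and 0.651 CPM. Lysosomal genes were mixed, 2 of 29 being called higher (Hexa and Arsb) and 3 lower (Lamp1, Lamp2 and Scarb2).

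Genes of other macrophage states were mixed. Of 13 complement and resident-type genes, 7 were called lower and 0 higher, with medians of -1.31, -2.78 and -1.75. Against TAM_Spp1 alone the medians were 0.12, -1.18 and -1.05, so the direction turned in RTT. C1qa, of the complement initiator C1q, was at 1118 CPM in RTT, 378 in RTT_ROSA26, 652 in RTT_PTGS12KO and 733 in NTT against 2697, 2743 and 2116 CPM, and Mrc1, the mannose receptor, at 288 CPM in RTT, 90.5 in RTT_ROSA26, 71.3 in RTT_PTGS12KO and 23.6 in NTT against 904, 764 and 457 CPM. Among 10 Spp1-type genes, 8 were called lower, including Il1b, at 167, 83.04 and 177 CPM against 1548, 872 and 1192 CPM, and 1 higher, S100a4, a calcium-binding protein gene at 2735 CPM in RTT, 4509.6 in RTT_ROSA26, 2703 in RTT_PTGS12KO and 1238 in NTT against 659, 899 and 741 CPM. Among genes with 50 CPM in the higher class of each sample, the 10 genes with the lowest ratios were Pdpn, Fn1, F13a1, Cx3cr1, Ccr2, Cd93, Fcrls, Basp1, Ccl6 and Cyp4f18, which include the monocyte chemokine receptors Ccr2, at 16.7, 19.6 and 21.97 CPM against 147, 184 and 289 CPM, and Cx3cr1, at 15.2, 11.9 and 20.4 CPM against 170.01, 305 and 203 CPM.

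Among genes with 50 CPM in the higher class of every resistant sample, which leaves out Car2, Itgb3 and Cttn, the 15 highest ratios were those of the 6 markers and of Coq8a (a kinase of coenzyme Q synthesis), Bdh2, Dcstamp, Myo10 (an unconventional myosin), Arsb (arylsulfatase B), Fam102a, Gask1b, Cd109 and Tfrc. Bdh2, a short-chain dehydrogenase, was at 317 CPM in RTT, 310.4 in RTT_ROSA26, 298 in RTT_PTGS12KO and 94.6 in NTT against 5.298, 6.79 and 5.25 CPM. Coq8a was at 58.7 CPM in RTT, 77.1 in RTT_ROSA26, 79.6 in RTT_PTGS12KO and 47.3 in NTT against 1.22, 0.824 and 0.639 CPM. Myo10 was at 82.5 CPM in RTT, 81.6 in RTT_ROSA26, 100.01 in RTT_PTGS12KO and 63.1 in NTT against 2.95, 3.42 and 2.35 CPM. In lipid-associated genes, Lpl (lipoprotein lipase) was called higher, at 153 CPM in RTT, 279.98 in RTT_ROSA26, 352 in RTT_PTGS12KO and 244 in NTT against 4.17, 16.3 and 37.7 CPM, and so was Anxa1, 2 of 9 with 0 lower, while the list's medians were -0.29, -0.25 and -0.25.

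The second question was whether the cells that remained in the knockout tumour differed from those of the control. In Ctsk_Macro of RTT_PTGS12KO against RTT_ROSA26, a gene was called when it differed at least 2-fold with 50 CPM in the higher sample and the same direction in each of the 3 loads. Of 6936 genes with at least 10 CPM over the resistant samples, 168 (2.42%) were called higher and 10 (0.144%) lower, and the median log2 ratio was -0.08. With a minimum of 50 CPM over the samples, 110 were called higher. RTT_ROSA26 also serves as the numerator of the comparison with RTT, so the 2 comparisons share its cells.

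The osteoclast genes differed little between these samples. The osteoclast core was a list of 15 genes beside the 6 markers, from Tnfrsf11a and Nfatc1 to Itgb3, Tcirg1 and Clcn7. Of its 13 genes that passed the filter, 1 was called higher and 0 lower, and their median log2 ratio was 0.02. Where bounds follow a list median, they are the medians of the genes' lower and upper interval bounds, here -0.09 to 0.12. For Ctsk the ratio was 0.08 (0.07 to 0.10), for Mmp9 0.22 (0.20 to 0.24), for Acp5 -0.19 (-0.21 to -0.17) and for Slc9b2 -0.11 (-0.20 to -0.03). Oscar had the largest of the 6, 0.70 (0.53 to 0.87), and Atp6v0d2 was at -0.32 (-0.40 to -0.24). Nfatc1 gave -0.23 (-0.32 to -0.14), Dcstamp -0.01 (-0.14 to 0.12) and Ocstamp 0.11 (-0.01 to 0.23). The intervals of all these genes stayed within 2-fold of no difference.

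The core gene called higher was Clcn7, at 62.8, 43.1 and 114 CPM (log2 ratio 1.400, 1.197 to 1.603), and the lowest was Itgb3, at 86.2, 72.8 and 37.2 CPM (log2 ratio -0.97, -1.24 to -0.70), just under 2-fold. None of 18 V-ATPase genes was called in either direction (median -0.11), nor any of 17 transcription factors (0.05), 10 fusion genes (0.00), 9 adhesion genes (-0.20) or 79 oxidative phosphorylation genes (-0.16). In other macrophages the median of the core list was -0.21 for the same contrast, and Acp5 was lower there, at -1.37. One inhibitor was called higher, Irf8, at 45.8 CPM in RTT, 28.4 in RTT_ROSA26, 97.4 in RTT_PTGS12KO and 94.6 in NTT, with a log2 ratio of 1.78 (1.54 to 2.02).

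**Figure D4:**
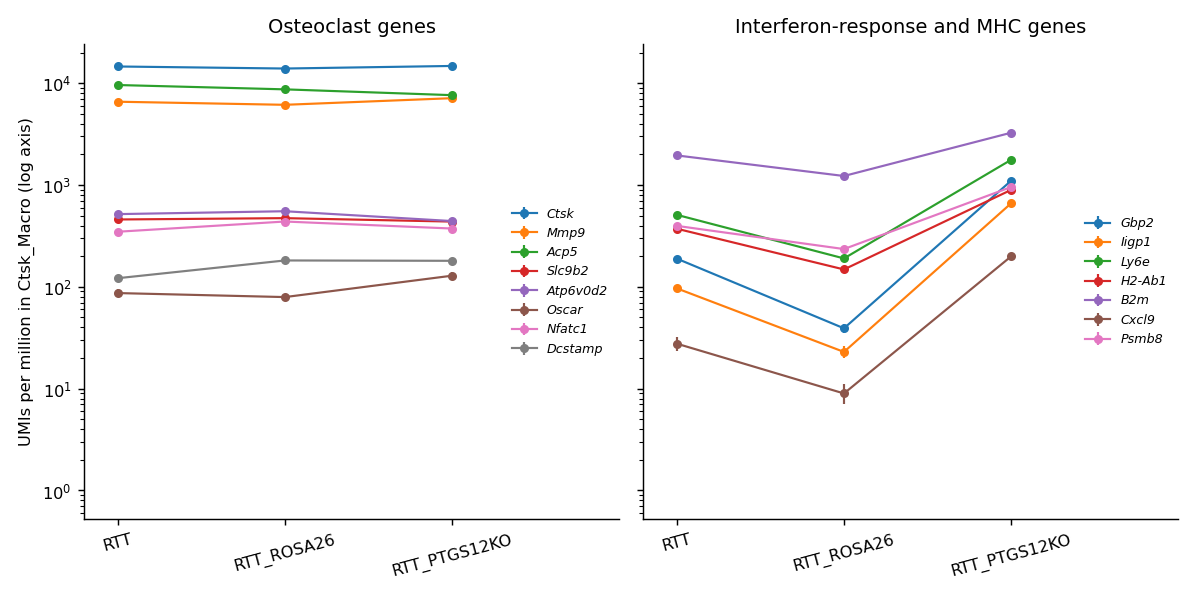
Level in Ctsk_Macro in UMIs per 1000000 (log axis) in the 3 resistant samples (x axis) for 8 osteoclast genes (left) and 7 interferon-response and MHC genes (right); bars are 95% Poisson intervals, mostly smaller than the points, and lines only join the values of a gene. The left lines are nearly flat, whereas each right line has its lowest point in RTT_ROSA26 and its highest in RTT_PTGS12KO.

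The interferon response and antigen presentation held the lists with the highest medians. Of 19 type II interferon genes, which respond to interferon-γ, 18 were called higher in RTT_PTGS12KO (all but Ly6i). Their list had a median log2 ratio of 3.55 (bounds 3.20 to 3.92). Gbp2, a guanylate-binding GTPase of cell-intrinsic defence, was at 189 CPM in RTT, 39.1 in RTT_ROSA26, 1104 in RTT_PTGS12KO and 441 in NTT, with a log2 ratio of 4.82 (4.66 to 4.98). Iigp1, an immunity-related GTPase, was at 96.7 CPM in RTT, 22.9 in RTT_ROSA26, 662 in RTT_PTGS12KO and 94.6 in NTT (log2 ratio 4.85, 4.64 to 5.07). In both, RTT lay between RTT_ROSA26 and RTT_PTGS12KO.

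Cxcl9, a chemokine that draws activated T cells, was at 27.7 CPM in RTT, 8.97 in RTT_ROSA26, 199.5 in RTT_PTGS12KO and 520.3 in NTT, with a log2 ratio of 4.48 (4.14 to 4.83). Cd274, which encodes the checkpoint ligand PD-L1, was at 15.3 CPM in RTT, 11.6 in RTT_ROSA26, 98.7 in RTT_PTGS12KO and 126 in NTT (log2 ratio 3.08, 2.76 to 3.42). Ido1 was at 0.333 CPM in RTT, 0.233 in RTT_ROSA26, 8.27 in RTT_PTGS12KO and 0 in NTT, under the level filter. The 23 listed genes summed to 1479, 621 and 5959.99 CPM in Ctsk_Macro, against 1248, 729.95 and 3629.7 CPM in other macrophages, whose own median log2 ratio was 2.84. The knockout sample was thus higher in both, and whether the 2 medians differ was not tested.

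Type I interferon genes followed. Of 23 that passed the filter, 13 were called higher and 0 lower. The list median was 2.51 (bounds 2.05 to 2.99), against 1.38 in other macrophages. Ly6e was at 509.8 CPM in RTT, 190.1 in RTT_ROSA26, 1770.3 in RTT_PTGS12KO and 1821 in NTT (log2 ratio 3.22, 3.14 to 3.298), Isg15, a ubiquitin-like modifier, at 43.2 CPM in RTT, 27.3 in RTT_ROSA26, 200.03 in RTT_PTGS12KO and 244 in NTT (log2 ratio 2.88, 2.66 to 3.09), and Cxcl10 at 33.01 CPM in RTT, 25.9 in RTT_ROSA26, 176 in RTT_PTGS12KO and 276 in NTT (log2 ratio 2.77, 2.55 to 2.99). The genes summed to 4649.7, 2357 and 8428 CPM, against 2656, 2091 and 4987 CPM in other macrophages. Oas1a, Ifih1 and Irf9 showed the smallest ratios of the list, 0.99, 0.94 and 0.77, and were not called. Ifit1 and Ifit2 had ratios of 3.35 and 3.41 but stayed below 50 CPM.

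Antigen presentation genes were higher too. All 7 MHC class II genes that passed had positive ratios and 6 were called. Their list median was 2.76 (bounds 2.59 to 2.92) against 2.00 in other macrophages. H2-Ab1 was at 372 CPM in RTT, 148 in RTT_ROSA26, 897 in RTT_PTGS12KO and 3413 in NTT (log2 ratio 2.598, 2.505 to 2.69) and H2-Aa at 318 CPM in RTT, 123 in RTT_ROSA26, 936 in RTT_PTGS12KO and 3366 in NTT (log2 ratio 2.93, 2.83 to 3.03). Ciita, the transactivator of these genes, was at 6.501 CPM in RTT, 2.33 in RTT_ROSA26, 36.4 in RTT_PTGS12KO and 86.7 in NTT, too low for a call. Of 9 MHC class I genes 8 were called higher, with a median of 2.29 against 1.37 in other macrophages. B2m, the shared light chain, was at 1953 CPM in RTT, 1226 in RTT_ROSA26, 3265 in RTT_PTGS12KO and 3492 in NTT (log2 ratio 1.41, 1.38 to 1.45), and Tap1, the peptide transporter, at 56.3 CPM in RTT, 28.7 in RTT_ROSA26, 186 in RTT_PTGS12KO and 134 in NTT (log2 ratio 2.701, 2.49 to 2.92).

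Among genes with 50 CPM in the higher sample and the same direction in each load and against RTT, the 10 largest ratios were those of Tgtp1, Iigp1, Ly6a, Gbp2, Slamf8, C4b, Gm4951, Clic5, Serpina3g and Cxcl9. Tgtp1, a T-cell-specific GTPase, was at 9.84 CPM in RTT, 1.16 in RTT_ROSA26, 67.97 in RTT_PTGS12KO and 0 in NTT, with a log2 ratio of 5.87 (4.97 to 6.94) and 10 UMIs in all Ctsk_Macro cells of RTT_ROSA26. Ly6a (Sca-1) was at 197 CPM in RTT, 42.2 in RTT_ROSA26, 1217 in RTT_PTGS12KO and 1577 in NTT (log2 ratio 4.85, 4.697 to 5.01). Clic5, an intracellular chloride channel protein, was at 18.2 CPM in RTT, 5.71 in RTT_ROSA26, 131 in RTT_PTGS12KO and 63.1 in NTT (log2 ratio 4.52, 4.09 to 4.97), against 0.436, 0.264 and 3.28 CPM in other macrophages. C4b, of complement component 4, was at 6.001 CPM in RTT, 2.91 in RTT_ROSA26, 70.3 in RTT_PTGS12KO and 7.88 in NTT (log2 ratio 4.59, 4.001 to 5.25), against a log2 ratio of 1.503 in other macrophages.

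Few genes were lower. Ctsl (cathepsin L) was at 2616 CPM in RTT, 1173 in RTT_ROSA26, 447 in RTT_PTGS12KO and 363 in NTT, with a log2 ratio of -1.39 (-1.47 to -1.32) against RTT_ROSA26, and Ctss (cathepsin S, which trims the invariant chain) went the opposite way, at 749.8 CPM in RTT, 402 in RTT_ROSA26, 1142 in RTT_PTGS12KO and 1837 in NTT (log2 ratio 1.504, 1.44 to 1.57). Bgn (biglycan, a matrix proteoglycan) was at 33.2 CPM in RTT, 66.4 in RTT_ROSA26, 25.3 in RTT_PTGS12KO and 7.88 in NTT (log2 ratio -1.39, -1.71 to -1.08), against a log2 ratio of 1.15 in other macrophages. Pf4 (a platelet-type chemokine) was at 1597 CPM in RTT, 639 in RTT_ROSA26, 301 in RTT_PTGS12KO and 55.2 in NTT (log2 ratio -1.08, -1.18 to -0.99). The others were Dennd5b, Comtd1, Ccl9, Nop56, Ndufaf4 and Timm8a1, called between -1.38 and -1.002, and Pdlim5, at -0.98, just missed the 2-fold limit. Of these, Dennd5b was at 0.10 without the cells with 2 or more UMIs of other cell types and Nop56 at 0.016 without those with 5 or more cell-cycle UMIs per 10000, so their direction turned. Ppp1r1a, the remaining gene called lower, was at 32.5, 68.8 and 33.9 CPM. The count of 10 was not stable, and was 5 with 10 CPM added to each value. It was 58 without cells that carried 2 or more UMIs of other cell types, with 203 cells left. Without cells with 5 or more cell-cycle UMIs per 10000 it was 114, with 44 cells left.

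RTT_ROSA26 against RTT served as a yardstick for resistant tumours that keep Ptgs1 and Ptgs2. There, 4 of 6936 genes (0.0577%) were called higher and 78 (1.12%) lower, with a median log2 ratio of 0.01. The osteoclast core had a median of 0.02 with 0 of 13 genes called in either direction, and the V-ATPase list 0.04 with 0 of 18 called. Ctsk gave -0.07 (-0.08 to -0.05) and Nfatc1 0.33 (0.26 to 0.41).

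The interferon and MHC lists differed between these samples as well, in the opposite direction. Type II genes had a median of -1.49 with 7 of 19 called lower, type I genes -0.63 with 2 of 23, MHC class II genes -1.37 with 5 of 7 and MHC class I genes -0.73 with 2 of 9. In other macrophages the medians were -0.91, -0.28, -0.46 and -0.51. Among genes with 50 CPM in the higher sample and the same direction in each load, the lowest ratios were those of Cd38, Gbp2, Ly6a, Mgst1 and Iigp1. Cd38, an NAD-consuming ectoenzyme, was at 61.8 CPM in RTT, 8.15 in RTT_ROSA26, 7.24 in RTT_PTGS12KO and 55.2 in NTT (log2 ratio -2.92, -3.31 to -2.55), so it was low in RTT_PTGS12KO as well. Mgst1, a glutathione transferase, was at 77.2 CPM in RTT, 16.8 in RTT_ROSA26, 54.3 in RTT_PTGS12KO and 86.7 in NTT (log2 ratio -2.202, -2.48 to -1.93).

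Because the control samples differed, the knockout was also set against RTT. In that contrast 110 of 6936 genes (1.59%) were called higher and 42 (0.606%) lower. Type II genes kept a median of 2.44 with 18 of 19 called higher, type I 1.59 with 11 of 23, MHC class II 1.34 with 6 of 7 and MHC class I 1.36 with 5 of 9. The osteoclast core had a median of 0.10, with 0 genes called higher and 1 lower, Itgb3, at 86.2 CPM in RTT and 37.2 CPM in RTT_PTGS12KO. The direction of the interferon lists thus did not depend on the control, while their size did.

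Resident-type genes separated RTT from both other resistant samples. The complement and resident-type list was at 24453, 8308 and 9344 CPM in sum, and 9 of 13 genes were called lower in RTT_ROSA26 against RTT (median -1.26). Apoe, an apolipoprotein, was at 17185 CPM in RTT, 5633 in RTT_ROSA26, 5872 in RTT_PTGS12KO and 3942 in NTT, C1qb at 1739 CPM in RTT, 543 in RTT_ROSA26, 1111 in RTT_PTGS12KO and 1711 in NTT and Pf4 at 1597 CPM in RTT. The same list had a median of -0.04 in other macrophages for RTT_ROSA26 against RTT. For RTT_PTGS12KO against RTT the medians were -0.94 in Ctsk_Macro and -0.97 in other macrophages. Between RTT_PTGS12KO and RTT_ROSA26 its median in Ctsk_Macro was 0.06, against -0.80 in other macrophages, with C1qb and C1qc called higher and Pf4 lower, and it was 0.93 without the cells with 2 or more UMIs of other cell types. Of the Spp1-type genes, 4 of 10 were called lower in RTT_ROSA26 against RTT (among them Thbs1, Clec4d and Il1b), and Cd14 and Il1b were called higher in RTT_PTGS12KO against RTT_ROSA26.

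**Figure D5:**
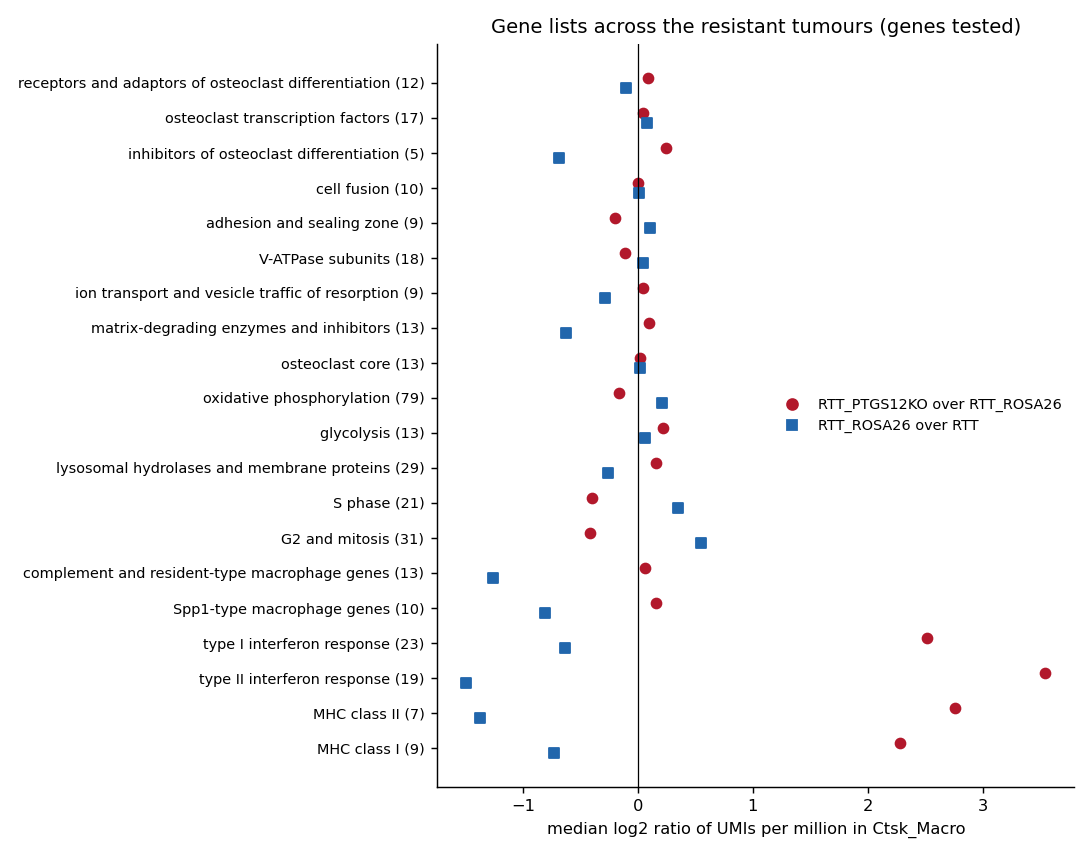
Median log2 ratio of UMIs per 1000000 in Ctsk_Macro (x axis) for each gene list (y axis, with the number of genes that passed the level filter); red circles are RTT_PTGS12KO over RTT_ROSA26 and blue squares RTT_ROSA26 over RTT, which share the RTT_ROSA26 cells. Osteoclast lists such as the core (0.02 and 0.02) lie near 0, and the interferon and MHC lists lie far to the right for the first ratio (2.29 to 3.55) and to the left for the second (-0.63 to -1.49).

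Single cells showed how widely the interferon response was spread. At 3000 UMIs per cell, at least 3 UMIs of type II genes were found in 125 of 328 cells in RTT (38.1%), 73 of 400 in RTT_ROSA26 (18.3%) but 157 of 187 in RTT_PTGS12KO (84.0%). The median was 2, 1 and 14 UMIs per cell, and the 90th percentile 13, 4 and 38.4. For MHC class II genes the medians were 1, 1 and 7 UMIs. Other macrophages met the limit of 3 type II UMIs in 49.7%, 30.4% and 82.4% of cells, so most cells of the knockout sample did so in either class. By contrast, the 6 markers had medians of 88, 88 and 87 UMIs, and at least 3 UMIs of the osteoclast core were found in 82.3%, 84.5% and 86.1% of cells.

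The V-ATPase genes had per-cell medians of 35, 38 and 33 UMIs, against 16, 15 and 13 in other macrophages, and oxidative phosphorylation genes 132.5, 156 and 145 against 81, 90 and 86. For complement and resident-type genes the spread within the cluster was wide, with a median of 43.5 UMIs and a 90th percentile of 254 in RTT, against 10.5 and 81.7 in RTT_ROSA26 and 20 and 69.8 in RTT_PTGS12KO.

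Some cells of the cluster carried cell-cycle transcripts. With S phase and mitosis genes counted at 3000 UMIs per cell, 10 or more such UMIs were found in 8.84% of cells in RTT (29 of 328; 6.001% to 12.5%), 16.5% in RTT_ROSA26 (66 of 400; 13.0% to 20.5%) and 8.02% in RTT_PTGS12KO (15 of 187; 4.56% to 12.9%). The same limit was met by 79.9% to 83.2% of TAM_cycling cells and by 2.44% to 4.06% of TAM_C1q cells in these samples. The control sample therefore stood above both others. Mcm6, a helicase subunit of DNA replication, was called higher in RTT_ROSA26 against RTT, at 31.3 CPM in RTT, 64.5 in RTT_ROSA26, 34.4 in RTT_PTGS12KO and 23.6 in NTT (log2 ratio 1.04, 0.80 to 1.29), and so was Ube2c, a ubiquitin-conjugating enzyme of mitotic exit, at 37.8 CPM in RTT, 90.5 in RTT_ROSA26, 50.1 in RTT_PTGS12KO and 142 in NTT (log2 ratio 1.26, 1.04 to 1.48). Over all samples, 150 cells had 20 or more cell-cycle UMIs per 10000, and without such cells Ube2c was at -0.53. The other genes called higher in this contrast were Ppp1r1a and Bgn, the latter at -0.11 without the cells with 2 or more UMIs of other cell types, and Ptpn22, at 0.97, just missed the limit. List medians for the contrast were 0.35 for S phase and 0.55 for mitosis, and those for RTT_PTGS12KO against RTT_ROSA26 -0.40 and -0.42. Without the cells with 20 or more cell-cycle UMIs per 10000 they were 0.04 and 0.03, and -0.03 and 0.18.

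Ptgs1 and Ptgs2 were edited only in the cancer cells, so their levels here check nothing about the edit. In Ctsk_Macro Ptgs1 was at 7.67 CPM in RTT, 4.08 in RTT_ROSA26, 4.13 in RTT_PTGS12KO and 15.8 in NTT, against 76.1, 62.5 and 21.8 CPM in other macrophages of the resistant samples. Ptgs2 was at 35.8 CPM in RTT, 26.7 in RTT_ROSA26, 53.8 in RTT_PTGS12KO and 307 in NTT, against 339.9, 212 and 265 CPM, and was called lower in the cluster. It was higher in RTT_PTGS12KO than in RTT_ROSA26, 1.01 (0.73 to 1.29), at the edge of the 2-fold limit. Of 17 genes of prostanoid and leukotriene synthesis and reception, 11 passed the filter against other macrophages and 3 were called lower, Ptgs2, Hpgds (prostaglandin D synthase) and Alox5ap, at 95.4, 68.8 and 97.9 CPM against 761, 669.9 and 648 CPM. Transcripts of the prostaglandin E2 receptors were scarce, Ptger2 at 2.83, 1.63 and 2.58 CPM and Ptger4 at 1.67, 3.73 and 6.98 CPM.

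Markers of other cell types were low. The lists of NK, T, dendritic, mast, melanoma, fibroblast, endothelial, osteoblast and B cells each summed to at most 28.4 CPM in the resistant samples. The defining genes Tnfsf11 (RANKL), Alpl, Ibsp, Tyr, Tyrp1 and Dct had 0 UMIs in all Ctsk_Macro cells. NK markers summed to 14.7, 6.41 and 28.4 CPM, with Gzma at 1.83, 2.45 and 17.8 CPM. Neutrophil markers summed to 241, 169 and 361 CPM, against 171, 208 and 169 CPM in other macrophages, and S100a9 was at 50.5, 76.5 and 184 CPM. Monocyte markers summed to 72.2, 81.9 and 144 CPM, against 316, 346 and 655 CPM, with Plac8 called higher in RTT_PTGS12KO against RTT_ROSA26. Of the resistant samples, these 3 lists were highest in RTT_PTGS12KO, the one with the highest interferon genes, and their part in that difference was not tested. Over all samples, 63 cells carried 10 or more UMIs of other cell types. Without such cells, 161 genes were called higher and 9 lower in RTT_PTGS12KO against RTT_ROSA26.

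The 5 cells of NTT are given as levels only. Their sums were 4896 CPM for type II interferon genes, 10918 CPM for MHC class II genes and 1931 CPM for monocyte markers, and 1 of the 5 had a UMI of only 2 of the 6 osteoclast markers.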

How the data were processed

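CD45+ cells of 4 tumour samples were profiled by droplet 3' single-cell RNA sequencing. The deposited table holds raw UMI counts of 32285 genes in 33368 cells, made by the authors with Cell Ranger on mm10, with cells kept at over 1000 genes and under 15% mitochondrial and 40% ribosomal UMIs. All deposited cells passed the first pair of these limits when checked. Cell types were named by the authors in Seurat 4.3.0 after integration with other experiments, and both names and sample labels were taken from the deposited annotation. Names and versions of tools upstream are those of the submitters' processing notes. No doublet caller was run here, and cells had been assigned to samples by their oligonucleotide tags.

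UMIs were summed over the cells of a class in a sample and scaled to 1000000 (CPM). Exact Poisson, Clopper-Pearson and conditional binomial intervals at 95% were computed in Python 3.11.15 (numpy 2.4.6, scipy 1.17.1, pandas 2.3.3). With 1 sample per group no count model was fitted, and edgeR 4.0.16 in R 4.3.3 gave only TMM scaling factors for an alternative. Genes with a mean of at least 10 CPM entered a comparison, and called genes differed at least 2-fold with 50 CPM in the higher sample. Ratios were computed without a pseudocount. A count of 0 allows up to 3 UMIs, or 0.349 to 0.775 CPM in the resistant samples' clusters. Where a class held 0 UMIs, no ratio was given. The scripts were tested on simulated data. Among macrophages were counted TAM_C1q, TAM_Spp1, TAM_cycling, TAM_H2Ab1 and Ctsk_Macro.

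The members and the 35 gene lists were chosen with earlier results of these data known. Named genes were the 6 markers, members of the osteoclast role lists, the 10 highest and 10 lowest ratios of RTT_PTGS12KO over RTT_ROSA26 of the same direction against RTT, the 5 highest and 5 lowest of RTT_ROSA26 over RTT, the 15 highest and 10 lowest ratios over other macrophages, all 3 among genes with 50 CPM in the higher sample or class and, between samples, the same direction in each load, the 3 highest and 3 lowest of other lists, and Ptgs1 and Ptgs2. Further members of the interferon, antigen presentation, macrophage, metabolism, prostanoid and other-cell lists, and Ppp1r1a, were named after their values were seen. Alternatives were other membership rules, cell filters, scalings, pseudocounts, reference classes and each load alone. A few genes are not reported here.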

Additional observations from a re-analysis of the deposited data

Results flagged for a closer look

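Among the named genes and the 6 markers, 8 differed in opposite directions in the members and in the other macrophages of the same samples in every load, and in 2 of them, Bgn and C4b, the difference in Ctsk_Macro was 2-fold or more. Bgn, which encodes the matrix proteoglycan biglycan, had a log2 ratio of -1.39 for RTT_PTGS12KO over RTT_ROSA26 in Ctsk_Macro, with loads up to -1.30, and of 1.15 in other macrophages, with loads from 1.06 to 1.31. C4b, of complement component 4, had a log2 ratio of -1.04 for RTT_ROSA26 over RTT in Ctsk_Macro, with loads from -1.94 to -0.90, and of 0.70 in other macrophages, with loads from 0.55 to 0.95. C4b was at 6.001, 2.91 and 70.3 CPM in RTT, RTT_ROSA26 and RTT_PTGS12KO in the cluster, so this ratio rests on few UMIs. The other 6 differed by less than 2-fold in the cluster. For RTT_PTGS12KO over RTT_ROSA26 the log2 ratios in Ctsk_Macro and in other macrophages were 0.08 and -0.60 for Ctsk, 0.22 and -0.85 for Mmp9, 0.29 and -0.54 for Myo10, and -0.55 and 0.71 for Cd109. In RTT_PTGS12KO, other macrophages held Ctsk at 26.2 and Mmp9 at 10.7 CPM, while its NK cells, which should lack both, held 13.8 (10.8 to 17.4) and 8.34 CPM (6.06 to 11.2), and the share of Ctsk_Macro, which carried 94.6% and 94.1% of these UMIs in RTT_PTGS12KO, was 3.21-fold lower than in RTT_ROSA26. The part of free RNA in these ratios was not tested. For RTT_ROSA26 over RTT the log2 ratios were -0.26 and 0.13 for Cd93, and -0.35 and 0.42 for Gask1b. With 1 sample per group the difference between the cell classes was not tested, and the loads are technical.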

How the results depend on the processing

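Between groups no paired analysis was possible, because there is a single sample in every group. Leaving out a replicate was not possible for the same reason, and the 3 technical loads stand in its place. Ctsk_Macro was compared with other macrophages within each resistant sample, which pairs the classes, and this was described without a test. Of 1430 alternative values, 1004 stayed near the reported value, 415 moved and 11 turned the sign of a difference of 2-fold or more. A further 45, all medians of gene lists that were under 2-fold as reported, also crossed 0, 14 of them while staying near the reported value. The share of CD45+ cells was 3.38% in RTT, 4.72% in RTT_ROSA26 and 1.52% in RTT_PTGS12KO for cells with 4 of 6 markers after thinning. It was 2.71% in RTT and 2.21% in RTT_PTGS12KO without cells with 2 or more UMIs of other cell types, with log2 ratios of -1.27 for RTT_PTGS12KO over RTT_ROSA26 and 0.98 for RTT_ROSA26 over RTT. Load 1 gave 0.146% in NTT, 5.21% in RTT_ROSA26 and 1.38% in RTT_PTGS12KO. Load 2 gave 0% for NTT, 4.64% for RTT and 2.15% for RTT_PTGS12KO, with ratios of -1.37 and 0.27. Load 3 gave 3.64% in RTT and 6.80% in RTT_ROSA26, with a ratio of 0.90 between them. With RTT as the control the knockout ratio was -1.18.

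As a share of macrophages the same thinned rule gave 4.00% in RTT, 5.37% in RTT_ROSA26 and 2.98% in RTT_PTGS12KO. Without cells with 2 or more UMIs of other types, RTT was at 3.02%, RTT_ROSA26 at 5.71% and RTT_PTGS12KO at 3.91%, above RTT, with ratios of -0.54 and 0.92. Load 1 gave 5.93% in RTT_ROSA26 and 2.66% in RTT_PTGS12KO (-1.16). Load 2 gave 0% for NTT, 5.56% for RTT and 4.28% for RTT_PTGS12KO, with ratios of -0.57 and 0.19. Load 3 gave 4.27% in RTT and 7.79% in RTT_ROSA26 (0.87). Leaving TAM_cycling out of the macrophages gave 5.61%, 9.64% and 5.57%, with 0.78 for RTT_ROSA26 over RTT. With RTT as the control the knockout ratio was -0.44. The knockout was lower than RTT_ROSA26 under every alternative run.

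Counts of genes lower in RTT_PTGS12KO against RTT_ROSA26, 10 as reported, were 5 with 10 CPM added, 5 at a minimum of 50 CPM, 58 without cells with 2 or more UMIs of other types, 114 without cells with 5 or more cell-cycle UMIs per 10000, 64 in load 1, 30 in load 2 and 42 against RTT. Those higher, 168 as reported, were 110 at a minimum of 50 CPM and 110 against RTT. Genes higher in RTT_ROSA26 against RTT, 4 as reported, were 1 with 10 CPM added, 1 at a minimum of 50 CPM, 46 without cells with 5 or more cycle UMIs, 2 without cells with 20 or more and 33 in load 1. Those lower, 78 as reported, were 33 without cells with 2 or more UMIs of other types. Fewer cells or genes enter the settings that leave out cells, use 1 load or raise the minimum. Signs changed for Dennd5b (0.10 without cells with 2 or more UMIs of other types), Nop56 (0.016 without cells with 5 or more cycle UMIs), Bgn in RTT_ROSA26 over RTT (-0.11 without cells with 2 or more UMIs of other types) and Ube2c (-0.27 in the same cells, -0.88 without cells with 5 or more cycle UMIs and -0.53 without cells with 20 or more). In all 3 samples the medians of cell-cycle genes against other macrophages turned from below to above 0. Against TAM_C1q alone they were 0.75, 0.92 and 0.56 for S phase and 0.91, 1.24 and 0.94 for mitosis genes, and against TAM_Spp1 alone 0.80, 1.403 and 0.94 and 1.53, 1.76 and 1.24. Against TAM_C1q alone the MHC class II median was 0.63 in RTT and 0.63 in RTT_PTGS12KO, from -0.64 and -0.67. The complement median of RTT was 0.12 against TAM_Spp1 alone. Beyond this the cause was not tested. Alternatives with RTT as the control, with 10 or more UMIs of other types, with 20 or more cycle UMIs and, for expression, with 4 of 6 markers were chosen after seeing the data. The NTT cluster, at 5 cells and 126851 UMIs, gives 3 or more UMIs only to genes at 23.6 CPM or more.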

Other observations

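A T cell receptor gene was counted in the cluster with few UMIs of other T cell genes. Trac, the constant segment of the receptor alpha chain, was at 6.83, 8.27 and 4.91 CPM in Ctsk_Macro of RTT, RTT_ROSA26 and RTT_PTGS12KO, against 0.294, 0.275 and 0.128 CPM in other macrophages. Cd3e, which every T cell needs to display that receptor, was at 0.167, 0.116 and 0 CPM in the same sums, against 0.0763, 0.022 and 0.0232 CPM in other macrophages. All T cell markers together were at 8.84, 10.1 and 6.202 CPM in Ctsk_Macro.

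Clic5 and Steap4 were nearly absent from other macrophages, and both differed between the clusters of the tumours. Clic5 was at 18.2, 5.71 and 131 CPM in Ctsk_Macro, against 0.436, 0.264 and 3.28 CPM in other macrophages. Steap4 was at 78.4, 23.3 and 77.01 CPM in Ctsk_Macro, against 0.698, 0.407 and 0.651 CPM, and was called lower in RTT_ROSA26 against RTT and higher in RTT_PTGS12KO against RTT_ROSA26. Both genes were picked after their values were seen.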
